A study of Mus musculus with 8 samples.

Results

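Fgf4, the gene of an FGF ligand, and Fgfr1, Fgfr2, Fgfr3 and Fgfr4, the genes of the 4 signalling FGF receptors, were followed at the RNA level in mouse embryonic stem cells. The genes were chosen by name, and all 5 were among the 17488 genes with values in the deposited table. Of the 13959 genes whose mean over the libraries was at least 1, which were the genes tested, 4 were of this family, and Fgfr3 lay below that level.

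The study asked which transcripts respond when a single paralog of the kinase GSK3 is inhibited. Total RNA of the E14 cell line (strain 129/Ola) was sequenced in 8 libraries, 2 in each of 4 groups. In the GSK3β line the Gsk3b gene was knocked out and a transgene supplied the L132G mutant of GSK3β, while in the GSK3α line Gsk3a was knocked out and a transgene supplied the L195G mutant of GSK3α. Such mutations open the ATP pocket to bulky analogs, here 3MB-PP1, that normal kinases bind poorly. All cells were starved of serum in N2B27 medium for 6 h. The 4 groups were the GSK3β line with 5 µM 3MB-PP1 for 2 h, the GSK3β line untreated, the GSK3α line with 5 µM 3MB-PP1 for 2 h, and the GSK3α line untreated. The labels named no change in the other paralog of a line, each paralog was represented by 1 line, and the labels gave neither a vehicle for the untreated cells nor a line without a mutant kinase. The labels did not say whether the libraries of a group came from separate cultures, and p-values here speak of library-to-library spread, which may be technical.

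FGF4 is the FGF that embryonic stem cells themselves secrete. With heparan sulfate as a cofactor it binds FGF receptors, which are tyrosine kinases, and the docking protein FRS2 then couples the receptor through GRB2, SOS and RAS to the ERK kinases. In the mouse embryo FGF4 from the epiblast drives neighbouring cells to primitive endoderm through FGFR1 and FGFR2, and in culture the autocrine FGF4 signal lets the cells leave the naive state toward lineage commitment. Fgf4 transcription in these cells depends on an enhancer at the end of the gene that OCT4 and SOX2 bind side by side.

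The libraries held an estimated 31.2 and 32.4 M gene reads in the GSK3β line with inhibitor, 23.8 and 28.9 M in the GSK3β line untreated, 25.98 and 26.4 M in the GSK3α line with inhibitor and 21.5 and 22.7 M in the GSK3α line untreated. Depth was thus higher with the inhibitor in both lines. Gsk3a was 1.02 lower and Gsk3b 2.10 higher on the log2 scale in the untreated GSK3β line than in the untreated GSK3α line, so the transgenic paralog of each line had the higher value there. Values per gene do not separate reads of a transgene from those of the gene it replaces. The 7 embryonic stem cell markers listed (Pou5f1, Sox2, Nanog, Zfp42, Esrrb, Dppa5a and Tdgf1) summed to values between 5946 and 6115 in every library. Single markers went in both directions beneath this sum: with the inhibitor Nanog and Esrrb rose and Tdgf1 fell in the GSK3β line, and none passed in the GSK3α line. In the untreated GSK3β line 3 of the 7 were higher (Nanog, Dppa5a and Tdgf1) and 3 lower (Sox2, Zfp42 and Esrrb), where calls of Nanog, Dppa5a, Tdgf1 and Esrrb ended when a single library was left out. The 7 primitive endoderm markers summed to between 10.3 and 12.1, with Foxa2 having no value, and 3 of the 6 fibroblast markers (Postn, Dcn and Twist2) had none. Among the others Thy1 was highest, at 11.3 and 12.4 in the GSK3β line with inhibitor and 11.2 and 12.02 untreated. In the GSK3α line Thy1 had 9.34 and 8.26 with inhibitor and 7.56 and 7.74 untreated. Col1a1 stood at 1.09 to 1.83, and Col1a2 was under the level tested. Thy1 passed as higher in the untreated GSK3β line, and neither Thy1 nor Col1a1 passed with the inhibitor in either line.

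Fgf4 lies on the forward strand at chr7:144861386-144865245 (GRCm38.p6, the build mm10), downstream of Fgf3 and upstream of Fgf15. No other annotated gene overlapped it. The stretch below is the composite SOX and octamer element of the Fgf4 enhancer, printed because OCT4 and SOX2 act on Fgf4 through it. It was located by a search of GENCODE M21 transcripts for TTTGTT, 3 bases of any kind and ATGCTAAT, on either strand. It lies on the forward strand at chr7:144864390-144864416 (GRCm38), in the 3′ untranslated region of the last of the 3 exons, 1454 bases past the stop codon. The capitals mark the SOX part and the octamer part.

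Fgf4 composite element: aactcTTTGTTtggATGCTAATgggat

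The arrangement occurred in the longest coding transcript of 2 of 21877 genes, Fgf4 and Ptchd4. The 250 bases before the Fgf4 start site (RefSeq, GRCm38.p6, chr7:144861136-144861385, forward strand) are printed as well, since Fgf4 was the gene of this family with the largest inhibitor change. Capitals mark the motifs found. The GC box was searched as GGGCGG, the CCAAT box as CCAAT, the TATA box as TATATA and the octamer as ATGCAAAT, each on both strands.

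Fgf4 promoter: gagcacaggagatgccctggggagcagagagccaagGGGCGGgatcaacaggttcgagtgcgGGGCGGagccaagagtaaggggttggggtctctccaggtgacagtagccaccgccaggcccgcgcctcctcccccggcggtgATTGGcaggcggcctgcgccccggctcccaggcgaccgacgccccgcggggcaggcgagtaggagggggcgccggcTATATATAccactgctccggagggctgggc

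The window held 2 GC boxes, 1 CCAAT box on the reverse strand and a TATATATA run in which TATATA occurs at 2 overlapping positions, and these letters held no octamer. Of 32851 promoter windows of the same length, 32.7% held a GC box, 33.8% a CCAAT box, 5.25% TATATA and 1.60% the octamer. G and C made up 71.2% of the Fgf4 window, against a median of 52.4% over all windows.

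Fgf4 RNA fell with the inhibitor in the GSK3β line and was slightly higher with it in the GSK3α line. The deposited values, which are read counts scaled by the authors to an equal upper quartile in each library, were 179 and 185 in the GSK3β line with inhibitor, against 267 and 256 in the same line untreated. They were 249.8 and 255 in the GSK3α line with inhibitor, against 232 and 228 untreated. The treated GSK3β libraries lay below the other 6, and the treated GSK3α libraries lay above the untreated ones of their line. In the GSK3β line Fgf4 averaged 182 ± 4.30 with inhibitor and 262 ± 8.13 untreated (SD, n = 2 each). This was a log2 change of -0.52 ± 0.03 (SE), with a 95% interval from -0.59 to -0.46 and an adjusted p of 1.78e-09 (limma, Benjamini-Hochberg over all tested genes, as for every adjusted p here), a fall by 30.5% on the scale log2(value + 1). Among the 4 genes tested, Fgf4 was lower and Fgfr1 higher in this line, where 14.9% of all tested genes passed the threshold of 0.05.

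Fgf4 averaged 253 ± 3.99 in the GSK3α line with inhibitor and 229.7 ± 2.58 in that line untreated (SD, n = 2 each), a log2 change of 0.14 ± 0.03 with an interval from 0.07 to 0.20 (adjusted p = 0.0497). Fgf4 was the 1 gene of 4 that passed there, against 0.881% of all tested genes. The GSK3α call sat at the threshold: over the alternative settings its adjusted p ran between 0.0202 and 0.351, and the log2 value between 0.12 and 0.15. It ended without untreated library 1 or 2 of this line (0.121 and 0.200), without inhibitor library 1 or 2 of this line (0.281 and 0.323), and when inhibitor library 1 or 2 of the GSK3β line was dropped (0.0712 and 0.0714).

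The 2 changes of Fgf4 differed between the lines by -0.66 ± 0.05 on the log2 scale, GSK3β minus GSK3α, with an interval from -0.76 to -0.57 (adjusted p = 5.20e-08). Fgf4 alone of the 4 passed this test of the difference, which 6.53% of all tested genes passed. The averaged inhibitor change over both lines was -0.19 ± 0.10 (adjusted p = 0.331), and 0 of the 4 genes passed there with limma-trend, limma-voom or limma without a trend or had an unadjusted p under 0.05, against 1.73% of all tested genes that passed and 17.3% with an unadjusted p under 0.05. Between the untreated lines Fgf4 was 13.8% higher in the GSK3β line (log2 0.19 ± 0.03, adjusted p = 0.000102). That comparison called Fgf4 and Fgfr2 higher and neither other gene, 2 of 4, while 48.2% of all tested genes passed, so the count says little about this family. The untreated GSK3β libraries stand on both sides of these comparisons, as the reference of the inhibitor and as the higher of the untreated lines. In order of level, the untreated GSK3β line came first, then the treated GSK3α line, the untreated GSK3α line and the treated GSK3β line. The first and second of these were next to each other, with libraries of 256 to 267 and of 249.8 to 255, and that pair was not tested.

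In these bulk samples fewer cells with Fgf4 RNA and less Fgf4 RNA per cell cannot be told apart. Values of markers of other cell types moved with the same treatment. The sum of the neural markers over 5 of 6 genes (Neurog1 had no value) was 219.8 to 228 in the treated GSK3β line, 158 to 168 in the untreated GSK3β line, 163 to 165 in the treated GSK3α line and 148 to 154 in the untreated GSK3α line. Most of this sum was Tubb3, at 182 and 176 in the treated and 120.2 and 129 in the untreated GSK3β line. Sox1 (3.33 and 3.30 there with inhibitor, against 4.07 and 4.42 untreated) did not pass. Pax6 (3.54 and 2.90, against 2.89 and 3.53) did not pass either. Tubb3 and Nes rose in the GSK3β line (log2 0.52 and 0.51, adjusted p = 4.15e-08 and 7.12e-06), while Neurod1 fell by 0.46 (adjusted p = 0.00352), a call that ended without untreated library 1 or inhibitor library 1 of that line (0.0914 and 0.0601). The 4 mesendoderm markers summed to 4.31 to 5.13 in the treated GSK3β line, 2.502 to 3.49 in the untreated GSK3β line, 5.22 to 5.43 in the treated GSK3α line and 6.34 to 6.85 in the untreated GSK3α line. Of these, Gsc and Evx1 rose in the GSK3β line (log2 0.54 and 0.52, adjusted p = 0.0157 and 0.0256). The Gsc call ended without untreated library 1 or either inhibitor library of that line (0.0512 to 0.153), and the Evx1 call without either untreated library (0.0676 and 0.104). The trophoblast markers, of which 4 of 5 had values (Elf5 had none), summed to 19.0 to 22.2 in the treated GSK3β line, 15.1 to 15.6 in the untreated GSK3β line, 12.5 to 14.5 in the treated GSK3α line and 13.9 to 14.6 in the untreated GSK3α line, and none of the 3 tested passed with the inhibitor. Cdx2, a trophoblast marker under the level tested, had 2.43 and 3.27 in the GSK3β line with inhibitor, against 0.195 and 0.32 untreated. The part of these markers in the Fgf4 result was not tested, and neither was that of read depth.

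**Figure D1:**
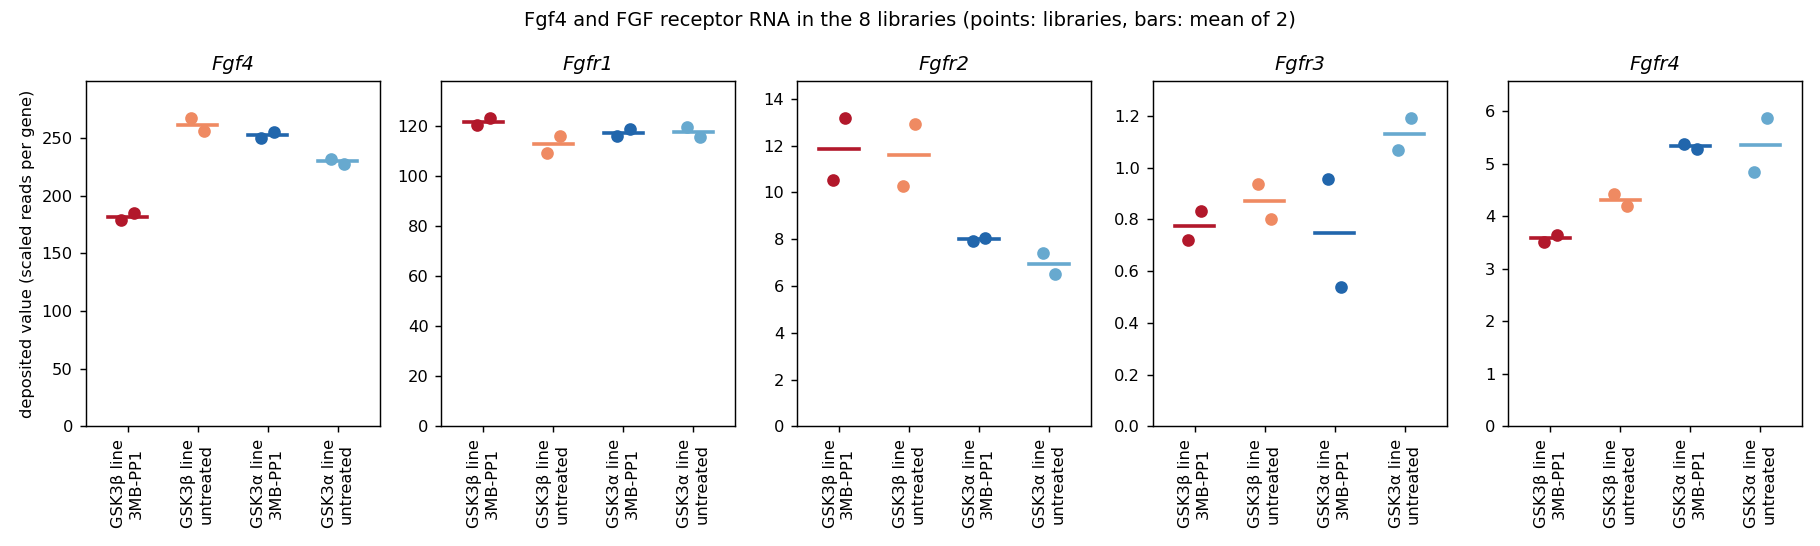
Deposited values (scaled reads per gene, linear axes starting at 0, a scale of its own for each gene) of Fgf4 and the 4 FGF receptors; points are libraries and bars the mean of 2. Fgf4 in the GSK3β line with 3MB-PP1 sits at 179 and 185, below the other 6 libraries, and Fgfr2 is higher in the 4 libraries of the GSK3β line than in those of the GSK3α line.

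Fgfr1, the receptor that carries most FGF signalling in embryonic stem cells, lies at chr8:25518759-25575718 (forward strand), and its span overlaps that of the antisense gene Gm16159. Whether their exons overlap was not examined. The sources used here do not state whether reads were counted by strand, so whether the Fgfr1 values hold reads of Gm16159 is not known. Fgfr1 had 120.2 and 123 in the GSK3β line with inhibitor, against 109 and 116 untreated. It had 116 and 119 in the GSK3α line with inhibitor, against 119 and 115 untreated. All 8 libraries thus stood within a narrow band, and the treated GSK3β libraries were the highest of it. In the GSK3β line the log2 change was 0.11 ± 0.04 with an interval from 0.03 to 0.19 (adjusted p = 0.0487), or 7.96%. The GSK3α line gave 0.00 with an interval from -0.08 to 0.07 (adjusted p = 0.992), and the libraries of the groups overlapped. The difference of the changes was 0.11 ± 0.05 (adjusted p = 0.221), so a line-specific change of Fgfr1 was not shown. The untreated GSK3β line did not pass against the untreated GSK3α line (log2 -0.06, adjusted p = 0.191). It passed without untreated library 2 of the GSK3β line (-0.10, adjusted p = 0.0465), and without untreated library 1 of that line the value was -0.016.

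The Fgfr1 call in the GSK3β line depended on the settings, with adjusted p from 0.0119 to 0.368 and log2 values from 0.07 to 0.15 over the alternatives. It ended without untreated library 1 (0.368) or inhibitor library 1 or 2 (0.138 and 0.242) of the GSK3β line, and without inhibitor library 1 or 2 of the GSK3α line (0.0675 and 0.0679). It also missed the threshold with equal library sums (log2 0.10, adjusted p = 0.0823).

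Fgfr2, which in its epithelial splice form answers FGF7 and FGF10 and in the embryo marks the primitive endoderm, lies on the reverse strand at chr7:130162451-130266808. It had 10.5 and 13.2 in the GSK3β line with inhibitor, against 10.3 and 12.9 untreated. It had 7.93 and 8.05 in the GSK3α line with inhibitor, against 7.41 and 6.4996 untreated. Each of the 4 GSK3β libraries was above each of the 4 GSK3α libraries. The inhibitor groups overlapped in the GSK3β line, and in the GSK3α line the treated libraries were the higher ones. Untreated, Fgfr2 averaged 11.6 ± 1.87 in the GSK3β line and 6.95 ± 0.64 in the GSK3α line (SD, n = 2 each), which was 57.8% more on the scale log2(value + 1) (log2 0.66 ± 0.11, interval 0.43 to 0.88, adjusted p = 7.04e-05). This call held under every alternative, with log2 values from 0.47 to 0.81 and adjusted p of at most 0.00847. The inhibitor change did not pass in the GSK3β line (0.03 ± 0.11, interval -0.20 to 0.26, adjusted p = 0.902), and its sign changed without untreated library 1 or inhibitor library 2 of that line (-0.12 for each). It did not pass in the GSK3α line either (0.18 ± 0.11, interval -0.05 to 0.41, adjusted p = 0.555), although the libraries of the 2 groups did not overlap, and the difference of the changes was -0.15 ± 0.15 (adjusted p = 0.639). The libraries of the GSK3β line differed within each group by more than the inhibitor groups did, so a change within these intervals was not detectable here. Gata4, a transcription factor of the primitive endoderm, was lower in the untreated GSK3β line (log2 -0.33, adjusted p = 0.0106), which did not pass without untreated library 2 of the GSK3β line or untreated library 1 of the GSK3α line (0.0528 and 0.0765). The summed primitive endoderm markers were 10.3 to 10.8 in the untreated GSK3β line and 11.3 to 11.4 in the untreated GSK3α line, with Pdgfra and Dab2 not passing and Gata6, Sox17 and Sox7 under the level tested.

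Fgfr4, a receptor best known in liver, where it answers FGF15 together with the co-receptor β-Klotho, lies at chr13:55152818-55168759 (forward strand). It had 3.51 and 3.65 in the GSK3β line with inhibitor, against 4.42 and 4.199 untreated. It had 5.37 and 5.29 in the GSK3α line with inhibitor, against 4.85 and 5.87 untreated. The 4 GSK3β libraries lay below the 4 GSK3α libraries, opposite to Fgfr2, and within the GSK3β line the treated libraries were the lower ones. None of these differences passed: the change was -0.21 ± 0.11 in the GSK3β line (interval -0.44 to 0.01, adjusted p = 0.201) and 0.00 in the GSK3α line (adjusted p = 0.996). The difference of the changes was -0.21 ± 0.15 (adjusted p = 0.466). The untreated GSK3β line against the untreated GSK3α line gave -0.26 ± 0.11 (interval -0.48 to -0.03, adjusted p = 0.0557), which passed without untreated library 1 of the GSK3α line (-0.37, adjusted p = 0.0223). With 109 to 146 estimated reads a library, Fgfr4 was measured far less precisely than Fgf4, which had between 5205 and 7981.

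Fgfr3, whose loss is known for overgrowth of the long bones, lies at chr5:33721724-33737068 (forward strand) and overlaps G630022F23Rik on the other strand. It was the lowest of the family, at 0.72 and 0.83 in the GSK3β line with inhibitor, against 0.94 and 0.80 untreated, and at 0.96 and 0.54 in the GSK3α line with inhibitor, against 1.07 and 1.19 untreated. The untreated GSK3α libraries were the highest, on 14.9 to 29.0 estimated reads a library. In a fit of all 17488 genes without the filter, its inhibitor change was -0.07 ± 0.14 in the GSK3β line (adjusted p = 0.806) and -0.29 ± 0.14 in the GSK3α line (adjusted p = 0.449), and none of the comparisons passed.

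**Figure D2:**
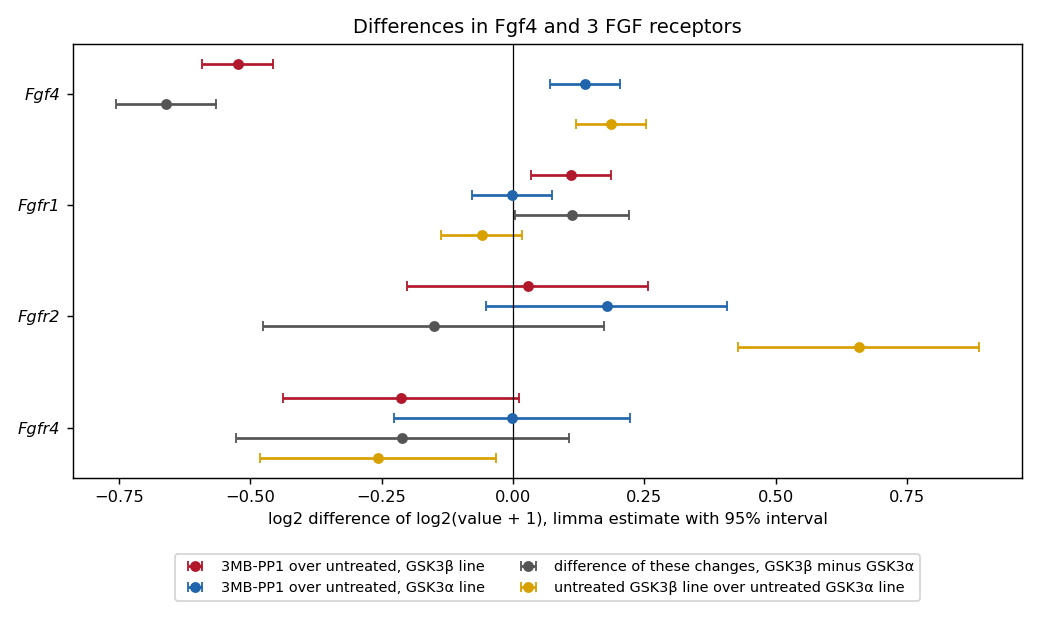
Log2 differences of Fgf4, Fgfr1, Fgfr2 and Fgfr4 on the scale log2(value + 1), as limma estimates with 95% intervals, for the inhibitor change of each line, their difference, and the untreated lines. The Fgf4 intervals exclude 0 in all 4, with the GSK3β change at -0.52 and the GSK3α change at 0.14; the Fgfr2 interval excludes 0 for the untreated lines alone.

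To compare the genes with each other, each value was divided by the length of the longest coding transcript. On this scale of scaled reads per kb, Fgf4 stood at 58.9 to 88.2 over the 8 libraries, above 92.2 to 94.96% of the 14438 genes that could be ranked. Fgfr1 followed at 21.7 to 24.4 per kb, above 78.6 to 80.8% of genes. Fgfr2 had 1.51 to 3.06 per kb, Fgfr4 1.06 to 1.77 and Fgfr3 0.127 to 0.281. The order Fgf4, Fgfr1, then the other receptors was the same in each library. Fgfr2 and Fgfr4 were close in the GSK3α line, where their levels were 1.84 and 1.87 for Fgfr2 and 1.62 and 1.59 for Fgfr4 with inhibitor. In untreated library 2 of that line Fgfr4 was the higher, at 1.77 against 1.51.

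Of the summed receptor RNA per kb, Fgfr1 made up a mean of 85.8% in the GSK3β line with inhibitor, 84.2% in the GSK3β line untreated, 86.5% in the GSK3α line with inhibitor and 87.0% in the GSK3α line untreated. Fgfr2 made up 9.75% and 10.1% in the treated and untreated GSK3β line, against 6.90% and 6.02% in the treated and untreated GSK3α line. Fgfr4 made up 3.83% and 4.90% in the treated and untreated GSK3β line, against 5.97% and 6.03% in the treated and untreated GSK3α line. Fgfr3 stayed between 0.470% and 1.06% in every library. With the summed length of all exons in place of the longest transcript, the Fgfr1 means were 84.5 to 86.9% and Fgfr2 remained higher in the GSK3β line, at 8.93 to 9.26%, against 5.49 to 6.29% in the GSK3α line. The ratio of ligand to main receptor, Fgf4 over Fgfr1 per kb, was 2.47 and 2.498 in the GSK3β line with inhibitor, against 4.07 and 3.67 untreated. The GSK3α line had ratios of 3.59 and 3.59 with inhibitor, against 3.23 and 3.29 untreated. These levels rest on transcript models, and the isoforms used in these cells were not measured.

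**Figure D3:**
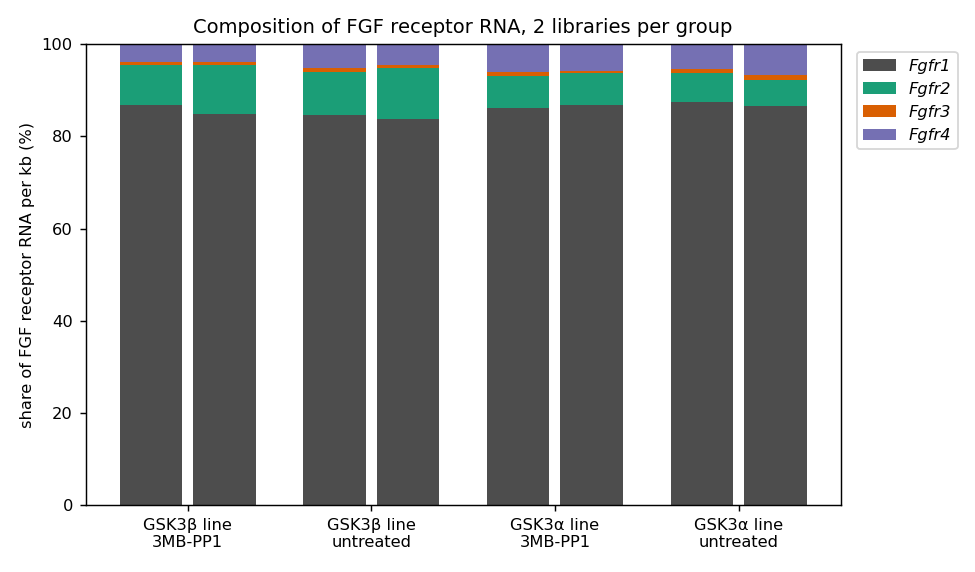
Share of each receptor in the summed FGF receptor RNA per kb (longest coding transcript), as stacked bars from 0 to 100%, 1 bar per library. Fgfr1 fills 83.8 to 87.3% of every bar, and the Fgfr2 segment is wider in the 4 bars of the GSK3β line.

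Of the 21 other FGF ligands, 13 had values and 9 were tested. In the GSK3β line Fgf5 and Fgf15 fell, none rose and 7 did not pass. The share of all tested genes that passed was 14.9% in that line and 0.881% in the GSK3α line. Fgf5, a ligand that comes up as cells leave the naive state, had 1.502 and 1.81 in the GSK3β line with inhibitor, against 4.53 and 3.94 untreated (log2 -0.98 ± 0.12, adjusted p = 1.36e-05). The GSK3α line had 2.76 and 2.94 with inhibitor, against 2.40 and 2.47 untreated, which did not pass (adjusted p = 0.644). The difference between the lines was -1.14 ± 0.17 (adjusted p = 0.000332). Fgf15, the next FGF gene downstream of Fgf4, had 6.05 and 5.62 in the GSK3β line with inhibitor, against 16.01 and 13.01 untreated (log2 -1.18 ± 0.10, adjusted p = 1.97e-07). Fgf15 in the GSK3α line had 5.81 and 6.26 with inhibitor, against 8.41 and 9.90 untreated (log2 -0.53 ± 0.10, adjusted p = 0.0167). The treated libraries of both lines thus met at nearly the same low level. The difference of the Fgf15 changes was -0.65 ± 0.15 (adjusted p = 0.0104), and Fgf15 was the 1 ligand that passed in the GSK3α line. Fgf5 and Fgf15 were also higher in the untreated GSK3β line (log2 0.61 for each, adjusted p = 0.000427 and 8.58e-05), and so was Fgf13, which encodes an intracellular protein that is not secreted (0.65, adjusted p = 0.00014). Fgf3 and the other tested ligands did not pass in any of the comparisons, and their values lay between 3.30 and 5.04 for Fgf1, 0.94 and 1.62 for Fgf2, 0.98 and 1.90 for Fgf10, 6.58 and 8.55 for Fgf11 and 3.95 and 5.74 for Fgf17 over the 8 libraries. The ligand list had a median change of -0.07 in the GSK3β line and 0.07 in the GSK3α line, against -0.01 and 0.01 over all tested genes. The GSK3α call of Fgf15 ended without inhibitor library 1 or 2 (adjusted p = 0.287 and 0.0954) or untreated library 2 (0.152) of that line. Its difference between the lines ended without inhibitor library 2 of the GSK3α line (0.0603) or untreated library 1 of the GSK3β line (0.0632).

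The genes around Fgf4 on chromosome 7 are Ano1, Fgf3, Fgf15, Oraov1 and Ccnd1, and all 5 were tested. Of these, Fgf15 and Ccnd1 fell in the GSK3β line, and Fgf15 alone fell in the GSK3α line. The share of all tested genes that fell was 7.44% in the GSK3β line and 0.616% in the GSK3α line. Fgf3, the nearest gene upstream, had 4.08 and 3.48 in the GSK3β line with inhibitor, against 2.97 and 3.11 untreated (log2 0.24 ± 0.12, adjusted p = 0.188). Its libraries did not overlap, and the sign was opposite to that of Fgf4, but the test was not passed. Ccnd1, the gene of cyclin D1, had 165 and 172 in the GSK3β line with inhibitor, against 185 and 182 untreated (log2 -0.12 ± 0.03, adjusted p = 0.0148). This call ended without inhibitor library 1 or untreated library 1 of the GSK3β line (adjusted p = 0.236 and 0.086). Oraov1 stood at 14.7 to 16.5 in every library.

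Of the 6 genes of the list with OCT4, SOX2 and genes known for composite elements, the genes of the factors themselves did not pass with the inhibitor. Pou5f1, which encodes OCT4, had 1405 and 1397 in the GSK3β line with inhibitor, against 1478 and 1442 untreated (log2 -0.06, adjusted p = 0.220). Sox2 had 329.8 and 331 in the GSK3β line with inhibitor, against 345 and 343 untreated (log2 -0.06, adjusted p = 0.203). Both sets of libraries stood a little lower with the inhibitor, by far less than those of Fgf4. Among the genes with composite elements, Utf1 fell by 0.20 and Lefty1, an antagonist of Nodal, fell by 2.54 in the GSK3β line (adjusted p = 0.00169 and 2.04e-14). Nanog and Fbxo15 rose there by 0.14 and 0.15 (adjusted p = 0.00287 and 0.00301), so these genes did not move in 1 direction. Lefty1 fell in the GSK3α line as well, by 1.14 (adjusted p = 1.48e-08), and the other 5 did not pass. The Nanog call ended without inhibitor library 1 of the GSK3β line (adjusted p = 0.0908).

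Of the 19 co-receptors, FGF-binding proteins and proteoglycans listed, 16 were tested. With the inhibitor 3 rose in the GSK3β line, none fell and 13 did not pass. Among all tested genes 14.9% passed in that line, 7.49% as higher. In the GSK3α line none of the 16 passed with limma-trend, limma-voom or limma without a trend. There 2 had an unadjusted p under 0.05, against 11.8% of all tested genes. Flrt3, a membrane protein that binds FGF receptors, had 3.42 and 3.59 in the GSK3β line with inhibitor, against 1.25 and 1.73 untreated (log2 0.86 ± 0.14, adjusted p = 0.00028). The glypican Gpc4 had 97.2 and 97.0 in the GSK3β line with inhibitor, against 83.7 and 86.8 untreated (log2 0.19 ± 0.04, adjusted p = 0.00252). Hspg2, the gene of the proteoglycan perlecan, also rose (0.19 ± 0.04, adjusted p = 0.0037), a call that ended without inhibitor library 1 of the GSK3β line (0.113). All 3 also passed the difference between the lines, where the Hspg2 call (adjusted p = 0.0225) ended without untreated library 2 or inhibitor library 1 of the GSK3β line, or without untreated library 1 or inhibitor library 1 or 2 of the GSK3α line (adjusted p 0.0563 to 0.168). The glypican gene Gpc3 was higher in the untreated GSK3β line, at 60.9 and 62.5, against 32.1 and 36.4 in the untreated GSK3α line (log2 0.83 ± 0.05, adjusted p = 1.71e-10). Sdc4, the gene of syndecan 4, was lower, at 88.1 and 94.9 in the GSK3β line, against 165 and 159 in the GSK3α line (log2 -0.82 ± 0.04, adjusted p = 3.46e-12). In that comparison 4 of the 16 were higher (Fgfrl1, Fgfbp1, Sdc3 and Gpc3) and 3 lower (Fgfbp3, Sdc4 and Gpc1), a share near the 48.2% of all tested genes, with glypican and syndecan genes in both directions. The Fgfrl1 call ended without untreated library 2 of the GSK3β line or of the GSK3α line (0.0744 and 0.0513), Fgfbp1 without untreated library 2 of the GSK3α line (0.0661), and Gpc1 without untreated library 2 of the GSK3β line or untreated library 1 of the GSK3α line (0.0562 and 0.0802). Flrt3, Fgfrl1 and Fgfbp3 were named after their values were seen.

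The 14 enzymes that build and edit heparan sulfate were all tested. In the GSK3β line Hs6st1, which adds 6-O-sulfate to the chain, had 83.6 and 82.8 with inhibitor, against 70.9 and 74.8 untreated (log2 0.19 ± 0.04, adjusted p = 0.00222). Sulf2, a sulfatase that removes that group outside the cell, had 202 and 197 with inhibitor, against 179 and 189.9 untreated (log2 0.12 ± 0.03, adjusted p = 0.0294). The other 12 did not pass. As 14.9% of all tested genes passed in the GSK3β line, the number of calls there says little about these enzymes. In the GSK3α line none of the 14 passed by any of the 3 limma fits or had an unadjusted p under 0.05. Of all tested genes 0.881% passed and 11.8% had such an unadjusted p in that line. The Sulf2 call ended without untreated library 1 or inhibitor library 1 or 2 of the GSK3β line (adjusted p = 0.288, 0.245 and 0.0677). Between the untreated lines, Sulf1 was higher in the GSK3β line, at 42.1 and 41.7, against 21.5 and 21.6 in the GSK3α line (log2 0.93 ± 0.05, adjusted p = 2.86e-11). Ext1, Ext2 and Sulf2 were higher too, while Hs6st1 and the sulfotransferase gene Hs3st3b1 were lower (log2 -0.23 and -0.96, adjusted p = 9.01e-05 and 5.91e-07). Since 48.2% of all tested genes passed between the untreated lines, the number of these calls says little about the enzymes.

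The 25 genes between receptor and ERK encode adaptors, RAS proteins and kinases. None of them rose with the inhibitor in the GSK3β line, and Mapk3 and Cbl were among the few that fell. In that line 7.49% of all tested genes rose and 7.44% fell. Mapk3, the gene of ERK1, had 50.6 and 47.9 in the GSK3β line with inhibitor, against 57.4 and 57.0 untreated (log2 -0.21 ± 0.04, adjusted p = 0.00157). It also passed the difference between the lines (-0.29 ± 0.06, adjusted p = 0.00586). Cbl, whose product ubiquitinates active receptors, fell by 0.18 (adjusted p = 0.0152). This call ended without untreated library 1 or inhibitor library 1 or 2 of the GSK3β line (adjusted p 0.0567 to 0.253). None of the 25 passed in the GSK3α line by any of the 3 limma fits (1 had an unadjusted p under 0.05). The median over the list was -0.01 in the GSK3β line and -0.03 in the GSK3α line, close to the -0.01 and 0.01 of all tested genes. Between the untreated lines 6 of the 25 were higher and 8 lower in the GSK3β line, against 22.3% and 25.9% of all tested genes, which says little about the list. The phosphatase gene Ptpn11 and the docking protein genes Gab1 and Frs3 were lower (log2 -0.80, -0.47 and -0.42, adjusted p = 1.2e-10, 1.29e-09 and 0.000459), and Nras and Hras were higher (0.29 and 0.28, adjusted p = 9.96e-07 and 3.18e-05).

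All 14 listed targets and feedback genes of the FGF and ERK pathway were tested. With the inhibitor 5 fell in the GSK3β line (Spry2, Spry4, Dusp4, Dusp6 and Phlda1), Etv5 rose and 8 did not pass. Over all tested genes 7.44% fell and 7.49% rose in that line. In the GSK3α line 4 fell (Spry2, Spry4, Dusp4 and Dusp6) and 10 did not pass, where 0.616% of all tested genes fell and 0.265% rose. Dusp6, the gene of a phosphatase that removes phosphate from ERK, had 20.7 and 22.7 in the GSK3β line with inhibitor, against 51.1 and 49.3 untreated (log2 -1.17 ± 0.05, adjusted p = 2.15e-11). Dusp6 in the GSK3α line had 45.9 and 44.5 with inhibitor, against 52.6 and 55.7 untreated (log2 -0.25 ± 0.05, adjusted p = 0.0205). The treated GSK3β libraries were far below the other 6, and the difference of the changes was -0.92 ± 0.07 (adjusted p = 2.12e-07). Spry4, a Sprouty inhibitor of the cascade, had 24.4 and 24.4 in the GSK3β line with inhibitor, against 47.8 and 47.2 untreated (log2 -0.93 ± 0.05, adjusted p = 2.01e-10). Spry4 in the GSK3α line had 45.5 and 48.0 with inhibitor, against 66.2 and 71.5 untreated (log2 -0.55 ± 0.05, adjusted p = 2.02e-06). With limma without a trend this Spry4 call did not pass (adjusted p = 0.0681), and 0 of the 14 genes passed as lower in the GSK3α line. Etv5, the gene of an ETS factor downstream of FGF, moved the other way in the GSK3β line, at 649 and 632 with inhibitor, against 543 and 563 untreated (log2 0.21 ± 0.03, adjusted p = 7.42e-05). The median of the list was -0.10 in the GSK3β line and -0.12 in the GSK3α line. Calls in the GSK3α line of Dusp4 and Dusp6 ended without inhibitor library 1 or 2 or untreated library 2 (adjusted p 0.159 to 0.292 for Dusp4 and 0.163 to 0.200 for Dusp6), and that of Dusp4 also without untreated library 1 (0.0504). The Spry2 call of the GSK3α line ended without any single library of that line or inhibitor library of the other (0.0706 to 0.334), and that of the GSK3β line without untreated library 1 or inhibitor library 1 or 2 (0.111 to 0.123). In the GSK3β line Dusp4 ended without untreated library 2 or inhibitor library 2 (0.0824 and 0.0683), and Phlda1 without untreated library 1 or inhibitor library 2 (0.0631 and 0.152). Between the untreated lines 10 of the 14 were lower in the GSK3β line, where Fgf4 was higher, and Etv1 alone was higher, against 25.9% and 22.3% of all tested genes. Ier3, an immediate early gene, was among the lower ones (log2 -0.74, adjusted p = 3.28e-05). The Dusp4 call of this comparison ended without untreated library 2 of the GSK3α line or untreated library 1 of the GSK3β line (0.0525 and 0.0797), and that of Il17rd without untreated library 1 of either line (0.0875 and 0.189).

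**Figure D4:**
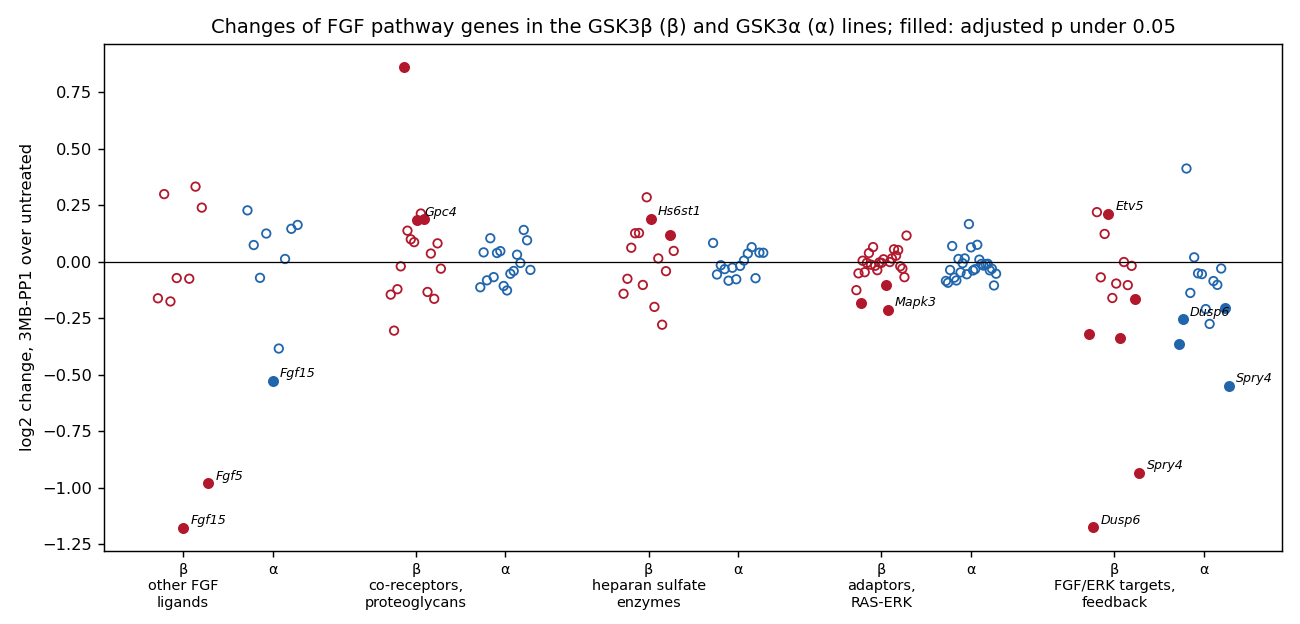
Log2 inhibitor change (3MB-PP1 over untreated) of the tested genes of 5 lists, with the GSK3β line in red left of the GSK3α line in blue; filled points have an adjusted p under 0.05, open points do not. Filled points below -0.75 occur in the GSK3β line for Fgf5, Fgf15, Spry4 and Dusp6, and the filled point above 0.75 is Flrt3.

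Other receptor tyrosine kinases were compared with the FGF receptors. Of 18 listed, 16 were tested, and with the inhibitor 2 rose (Kit and Ddr2) and 2 fell (Erbb3 and Ddr1) in the GSK3β line. Over all tested genes 7.49% rose and 7.44% fell in that line. In the GSK3α line none of the 16 passed by any of the 3 limma fits. Of the 16, 5 had an unadjusted p under 0.05, against 11.8% of all tested genes. Kit, the receptor of stem cell factor, had 94.1 and 88.7 in the GSK3β line with inhibitor, against 54.4 and 57.7 untreated (log2 0.70 ± 0.05, adjusted p = 4.32e-09). It had 92.8 and 102 in the GSK3α line with inhibitor, against 90.6 and 90.9 untreated, so the untreated GSK3β libraries were the low ones. The difference of the changes was 0.59 ± 0.07 (adjusted p = 1.13e-05). Its change was larger than that of any FGF receptor in that line. The calls of Ddr2 and Ddr1 in the GSK3β line ended without inhibitor library 1 (adjusted p = 0.163 and 0.0952), and that of Ddr2 also without untreated library 1 (0.0545). Between the untreated lines 6 of the 16 were higher and 3 lower in the GSK3β line, against 22.3% and 25.9% of all tested genes. Insr, the insulin receptor gene, was higher (log2 0.34, adjusted p = 0.0016), and so was Egfr (0.31, adjusted p = 0.0371), whose call ended without any single untreated library (0.0786 to 0.118).

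Which receptor isoforms were made cannot be read from values per gene, but 4 regulators of receptor splicing were measured. Esrp1, whose product favours the epithelial IIIb exon of Fgfr2, had 11.8 and 13.2 in the GSK3β line with inhibitor, against 20.9 and 18.7 untreated (log2 -0.62 ± 0.07, adjusted p = 6.36e-06). The GSK3α line had 25.3 and 28.7 with inhibitor, against 30.5 and 30.1 untreated (log2 -0.17 ± 0.07, adjusted p = 0.364). Esrp1 was also lower in the untreated GSK3β line than in the untreated GSK3α line (log2 -0.59 ± 0.07, adjusted p = 1.98e-06), where total Fgfr2 was higher. Esrp2 was lower there as well (-0.42 ± 0.10, adjusted p = 0.00267), a call that ended without untreated library 2 of the GSK3β line (0.0521). The difference of the Esrp1 changes was -0.46 ± 0.10 (adjusted p = 0.0103), and it did not pass without inhibitor library 2 of the GSK3α line or inhibitor library 1 of the GSK3β line (0.082 and 0.0738).

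The genes with the profile most like that of each called member were found by the root mean square difference over the 8 libraries, after each gene was centred on its own mean on the scale log2(value + 1). Among 11156 genes ranked, the 5 nearest to Fgf4 were Igsf9, Sall2, Marcks, Epcam and Prph, at differences of 0.0613 to 0.0703, against a median of 0.228 over all ranked genes. Marcks, whose product is a membrane substrate of protein kinase C, had 74.6 and 73.9 in the GSK3β line with inhibitor, against 109 and 101 untreated. In the GSK3α line it had 98.0 and 92.8 with inhibitor, against 96.9 and 95.1 untreated. All 5 were lower with the inhibitor in the GSK3β line and did not pass in the GSK3α line. Since they were chosen for likeness to Fgf4 over these same libraries, a shared fall follows from the choice. Among the 5 nearest to Fgfr2 were Car8, Thra, Adcyap1r1 and Cdhr1, at 0.0859 to 0.0983 against a median of 0.338. Thra, the gene of a thyroid hormone receptor, had 17.8 and 20.5 in the untreated GSK3β line, against 10.9 and 10.5 in the untreated GSK3α line. The nearest to Fgfr1 were Smg9, Atp2a2, Cdc42bpb, Rbfox2 and Extl3, at 0.0192 to 0.0236 against a median of 0.113. Fgfr1 itself hardly varied, with a root mean square deviation of 0.0477 from its own mean. These likenesses describe the 8 libraries, in which lines and treatments are shared by all genes.

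**Figure D5:**
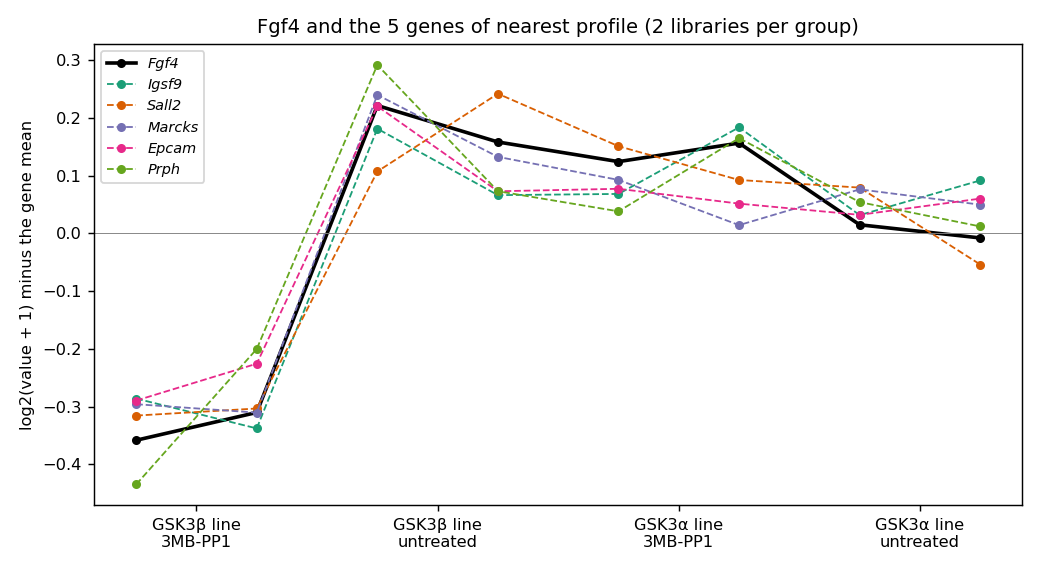
Fgf4 and the 5 genes of nearest profile, as log2(value + 1) minus the mean of each gene over the 8 libraries, which are ordered by group; the lines join points of 1 gene and mark no order in time. All 6 genes are lowest in the 2 libraries of the GSK3β line with 3MB-PP1, which follows from choosing the 5 by likeness over these same libraries.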

How the data were processed

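Total RNA was sequenced on the Illumina platform from TruSeq libraries, per the labels' protocols. TopHat2, Partek and the mouse build mm10 are named in the submitters' processing notes; versions, gene annotation, strand setting and filters are not given in the sources used here. The authors deposited a table of signal values, that is, estimated gene counts scaled to an upper quartile that was equal in all libraries to within 0.0548%. The values are not raw counts and are not per length. The smallest value of each library was taken as 1 read, which gave 21.5 to 32.4 M reads and the estimated reads per gene. Of 48321 genes listed, 17488 had values.

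Tested were the 13959 genes that averaged 1 or more over the libraries (3529 fell below) on log2(value + 1), a scale that understates the change of low genes, with limma-trend (limma 3.58.1, R 4.3.3). The model had 1 mean for each of 4 groups and 4 residual degrees of freedom, or terms for line and inhibitor and 5 for the average change. P-values were two-sided and adjusted by Benjamini-Hochberg over all tested genes of each of 5 comparisons, with a threshold of 0.05 and intervals at 95%. The median SE was 0.0634 for a comparison of 2 groups and 0.0897 for the difference. The script was tested on simulated data. Tables were made with pandas 2.3.3 and figures with matplotlib 3.10.9.

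The genes, the 9 gene lists, the marker lists and the tests were chosen with earlier results of these data known. The rule for naming took the 5 genes, Gsk3a and Gsk3b, every tested FGF ligand, Fgf4 neighbour and OCT4 or SOX2 gene, and from each other list up to 3 genes per direction and comparison with the largest change past the threshold, groups that did not overlap and a mean of at least 5. Genes of small counts, and the 5 nearest in profile to each called gene, are named besides. A few genes that the rule took are not reported here. Coordinates (5 of 5 genes) and promoters (4 of 5) are from RefSeq GRCm38.p6, transcripts from GENCODE M21. There were 18 alternative settings.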

Additional observations from a re-analysis of the deposited data

Results flagged for a closer look

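In 15 of the genes named by rule the inhibitor change differed between the lines by the test of the difference. Genes chosen for a profile near a family member's were left aside. Part of the rule named genes for passing this same test, so the count of 15 follows in part from the choice. Among all tested genes 6.53% passed it. The GSK3β change was the more negative in 9 of these 15 genes. Over all tested genes it was the more negative in 2.9% and the more positive in 3.62%. Since the rule also limited the genes per list and direction, the split says little about direction. Fgf4 differed by -0.66 on the log2 scale, and its estimates in the 2 lines had opposite signs. The rise in the GSK3α line sat at the threshold (limma-trend, adjusted p = 0.0497) and did not pass without a trend (0.351). Fgf5 differed by -1.14; it fell in the GSK3β line and did not pass in the GSK3α line. Fgf15 differed by -0.65 and Lefty1 by -1.40, and both fell in each line, as did Dusp6 with a difference of -0.92 and Spry4 with -0.38. The other genes with the more negative GSK3β change were Esrp1 (-0.46), Mapk3 (-0.29) and Ddr1 (-0.27). The GSK3β change was the more positive in Kit (0.59), Gpc4 (0.31), Etv5 (0.26), Hspg2 (0.23), Hs6st1 (0.21) and Gsk3a (0.19). The calls of Gsk3a, Hs6st1, Ddr1, Hspg2, Fgf15 and Esrp1 ended when a single library was left out, with adjusted p up to 0.104, 0.127, 0.18, 0.168, 0.0632 and 0.082 in that order. Without a trend, Gsk3a, Fgf15, Hspg2, Gpc4, Hs6st1, Mapk3, Spry4, Etv5, Ddr1 and Esrp1 did not pass (adjusted p 0.0711 to 0.218). What sets these differences was not tested, and each line is 1 line, so the paralog and the line cannot be told apart.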

How the results depend on the processing

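Over 18 alternative settings, 320 of 347 recomputed values of Fgf4, Fgfr1, Fgfr2 and Fgfr4 kept their side of the threshold, 23 no longer passed and 4 newly passed. For the other named genes these numbers were 4756, 127 and 35 of 4918. No value that passed under either setting changed its sign, while 9 values of the family and 112 of the other genes that passed under neither did. In the family these were Fgfr1 and Fgfr4 in the GSK3α line, Fgfr2 in the GSK3β line and the difference for Fgfr2. Of 1278 list counts 86 moved by over 1.5 times. Fgf4 in the GSK3α line no longer passed at a log2 change of 0.14 with a pseudocount of 0.1 (adjusted p = 0.0533), with no filter (0.0615), with limma-voom on estimated reads (0.0604) and without a trend (0.351), nor at 0.13 with median centring (0.0717). Fgfr1 in the GSK3β line no longer passed at 0.11 with a pseudocount of 0.1 (0.0517), with no filter (0.0595), without a trend (0.198) and with only its own libraries (0.0685), nor at 0.10 with equal library sums (0.0823). For Fgfr4 the untreated GSK3β line passed against the untreated GSK3α line with a pseudocount of 5 (-0.15, adjusted p = 0.0428) and without a trend (-0.26, 0.0347). Without a trend, 980 genes passed in the GSK3β line, 3 in the GSK3α line, 133 for the difference and 10 for the average. That fit ended the GSK3β calls of Gpc4, Hs6st1, Hspg2, Sulf2, Utf1 and Nanog (adjusted p 0.0572 to 0.181). The calls of Fbxo15, Ccnd1, Cbl, Dusp4, Ddr2 and Erbb3 in that line also ended (0.0549 to 0.129). The cause was not tested.

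Leaving out each library in turn gave log2 values of 0.12 to 0.15 for Fgf4 in the GSK3α line and 0.067 to 0.15 for Fgfr1 in the GSK3β line. Between the untreated lines it gave -0.10 to -0.016 for Fgfr1 and -0.37 to -0.14 for Fgfr4. Counts of genes passing ran over 855 to 2272 in the GSK3β line, 17 to 191 in the GSK3α line, 351 to 1339 for the difference and 53 to 232 for the average. Replicate numbers did not pair the libraries: the correlation of library 1 minus library 2 between groups was -0.0447 to 0.0271. With the replicate number as a block, Fgf4 in the GSK3α line (0.14, adjusted p = 0.0766) and Fgfr1 in the GSK3β line (0.11, 0.0542) no longer passed, and 102 genes passed for the average. Fgfr3, at 14.9 to 29.0 estimated reads, and Fgfr4, at 109 to 146, are limited by depth.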
